A study of Canis lupus familiaris with 8 samples.

Results

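Complex I of the respiratory chain was followed in the left ventricle of dogs with alloxan-induced type 1 diabetes. On the Affymetrix Canine Genome Array, 66 probe sets of 35 genes, among 23836 probe sets tested, had a single gene symbol that starts with NDUF. Of these, 57 probe sets belonged to 30 subunit genes and 9 belonged to 5 assembly factors, whose symbols start with NDUFAF. The members were taken by symbol alone, without a threshold on any measured value. The DM dogs 0292, 0294, 1087 and 1111 had received 40 to 60 mg/kg alloxan by vein, and their hearts were taken after 4 weeks. Alloxan kills the beta cells of the pancreas, which make insulin. The control dogs D5, D6, D7 and D8 were given no alloxan. All 8 animals were male mongrel dogs of 23 to 27 kg by the labels, instrumented by surgery, and each gave 1 array. Ages were not given in the sources used here. The tissue was whole left ventricle, so fewer cells of a type and less RNA per cell cannot be told apart.

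Complex I, or NADH:ubiquinone oxidoreductase, is the entry point of the respiratory chain for electrons from NADH. Its matrix arm holds the core subunits that carry a flavin and a row of iron-sulfur clusters, through which electrons pass to ubiquinone. Its membrane arm pumps protons into the intermembrane space, and the gradient drives ATP synthase. Many accessory subunits surround the core, and assembly factors join the modules without staying in the finished enzyme. The proton-pumping core of the membrane arm is encoded by mitochondrial DNA and was not analysed here. Heart muscle is rich in mitochondria and draws most of its ATP from this chain. The roles of single subunits given below are known mainly from bovine heart and human cells.

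The arrays differed in ways that moved with the groups. The hybridization controls, transcripts added in fixed amounts, averaged 16.3 ± 1.05 in DM arrays and 13.9 ± 1.27 in control arrays (log2 deposited signal, SD, n = 4 each, exact permutation p = 0.0571, two-sided). In control dog D8 they reached 15.8, above the value of 15.2 in DM dog 1111, whereas D5, D6 and D7 lay between 13.1 and 13.4. The 3′ minus 5′ signal of GAPDH was 1.76 ± 1.03 in DM arrays and 4.36 ± 1.10 in control arrays on the log2 scale (exact permutation p = 0.0286, the smallest 4 against 4 dogs allow), and that of actin was 5.62 ± 1.56 in DM arrays and 3.31 ± 2.34 in control arrays (exact permutation p = 0.171). Of 11 measured cardiomyocyte marker genes out of 14 listed, all had lower means in DM dogs by the probe set of highest signal, with per-dog medians of 11.68 to 13.46 in DM dogs and 13.58 to 15.94 in control dogs. Over all 44 probe sets of these genes, 32 had lower means and 12 had higher ones. At an unadjusted p under 0.05, 17 were lower and 4 higher (8.91% and 7.80% of all probe sets). The 4 included a bright probe set of TTN with a log2 fold change of 2.42 and no overlap. MYH7, the slow myosin heavy chain, had a mean of 16.25 in DM dogs and 16.87 in control dogs by its probe set of highest signal, and thus lay among the brightest probe sets in both groups. Its next brightest probe set had means of 10.95 in DM dogs and 13.52 in control dogs, without overlap. Another MYH7 probe set had 10.79 in DM dogs and 9.58 in control dogs with overlapping groups, so its probe sets disagreed. MYH7 is a defining marker of ventricular muscle. By the probe set of highest signal, 9 of the 11 genes were lower at an unadjusted p under 0.05, among them TNNI3, cardiac troponin I, with 9.66 ± 1.45 in DM dogs and 15.50 ± 1.76 in control dogs (SD, n = 4 each). Of the markers of other cells, taken the same way, 1 of 5 endothelial, 1 of 4 fibroblast and 1 of 3 smooth muscle genes were lower at that level, 1 of 5 macrophage genes was higher, and 0 of 3 other leukocyte and 0 of 2 adipocyte genes passed. In a fit of 1 probe set per gene, 12.5% of all 6540 genes were lower and 8.90% higher at that level. Counts of 1 gene in such short lists are thus not read as a difference between cell types. Per-dog medians of the macrophage genes were 8.97 to 10.34 in DM dogs and 8.39 to 9.80 in control dogs, and red blood cell markers were not analysed here. The part of these measures in the results was not tested. No array batch is given in the sources used here, so a batch and diabetes cannot be told apart.

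**Figure D1:**
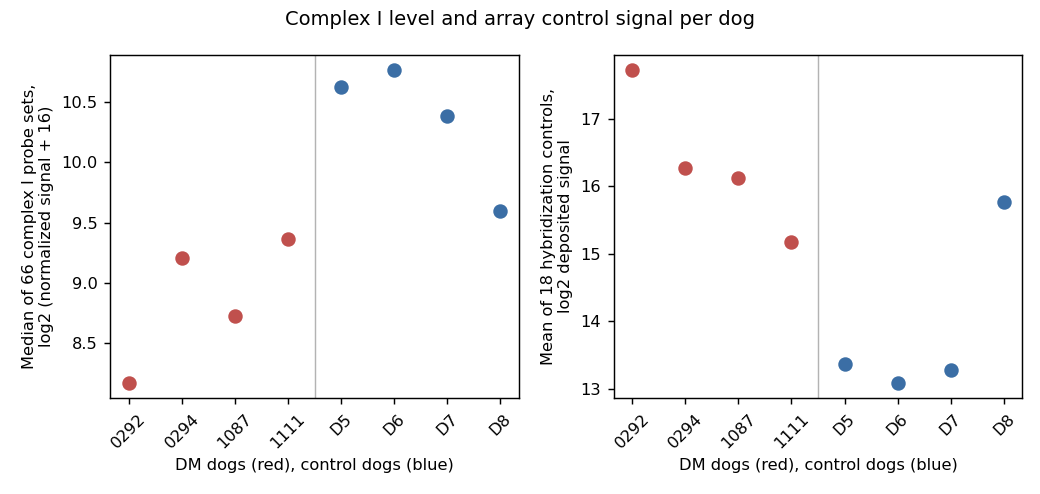
Complex I level and hybridization control signal of each dog. Left, the median of the 66 complex I probe sets on the y axis, as log2 (normalized signal + 16). Right, the mean of 18 hybridization controls as log2 deposited signal. DM dogs are red and control dogs are blue. Complex I medians were 8.17 to 9.36 in DM dogs and 9.60 to 10.77 in control dogs, with D8 the lowest control dog, and the hybridization controls of D8 lay among those of the DM dogs.

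The typical complex I signal was lower in every DM dog than in every control dog. The median over the 66 probe sets was 8.17, 9.21, 8.72 and 9.36 in DM dogs 0292, 0294, 1087 and 1111, against 10.63, 10.77, 10.38 and 9.60 in control dogs D5, D6, D7 and D8, as log2 of normalized signal plus 16. As deposited, with each array scaled by 1 factor and not yet quantile normalized, the median signal of the same probe sets was 543, 557, 375 and 512 in DM dogs and 1836, 2022, 1536 and 692 in control dogs. Dog D8 was the lowest of the control dogs in 39 of 66 probe sets, or 59.1%, against 34.8% of all probe sets tested. Among DM dogs, the lowest value was most often in 1087 (27 probe sets) or 0292 (23 probe sets), and less often in 0294 (9) or 1111 (7).

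Of the 66 probe sets, 56 had a lower mean in DM dogs and 10 a higher one. Lower means made up 84.8% of complex I probe sets and 48.1% of all probe sets. The median log2 fold change, DM minus control, was -1.20, with quartiles of -2.03 and -0.30, beside 0.06, with quartiles of -0.73 and 0.80, over all probe sets. A mean at least 2-fold lower was found for 38 complex I probe sets, or 57.6% (18.5% of all). At least 4-fold lower were 17, or 25.8% (4.81% of all), and at least 8-fold lower were 10, or 15.2% (1.12% of all).

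With limma and Benjamini-Hochberg adjustment over all probe sets, 0 complex I probe sets passed 0.05 in either direction. The same test called 4 of all 23836 probe sets lower (0.0168%) and 0 higher (0.00%). The lowest adjusted p of a member was 0.0608. At an unadjusted limma p under 0.05, 30 members were lower in DM dogs, or 45.5% (8.91% of all probe sets), and 2 were higher (7.80% of all). Groups that did not overlap were found for 29 members lower in DM dogs, or 43.9% (5.87% of all), and for 0 higher (4.93% of all). With the methods' t-test, run here with equal variances on the same log2 values and not on the RMA values with variance stabilization that the methods name, at P no greater than 0.01 and a change of 2-fold or more, 18 members were lower, or 27.3% (2.52% of all), and 0 higher (2.45% of all). After adjustment it also called 0 members, beside 12 of all probe sets lower (0.0503%) and 10 higher (0.0420%). The count of members lower at an adjusted p was 6 without control dog D8 (0.906% of all probe sets), 10 without DM dog 1111 (1.49% of all) and 0 without any other single dog. It was 48 when arrays were scaled to the hybridization controls, where 32.2% of all probe sets were called lower. With all dogs and the scaling used here, the call at an adjusted p failed for every gene below, and their values are given as measurements.

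**Figure D2:**
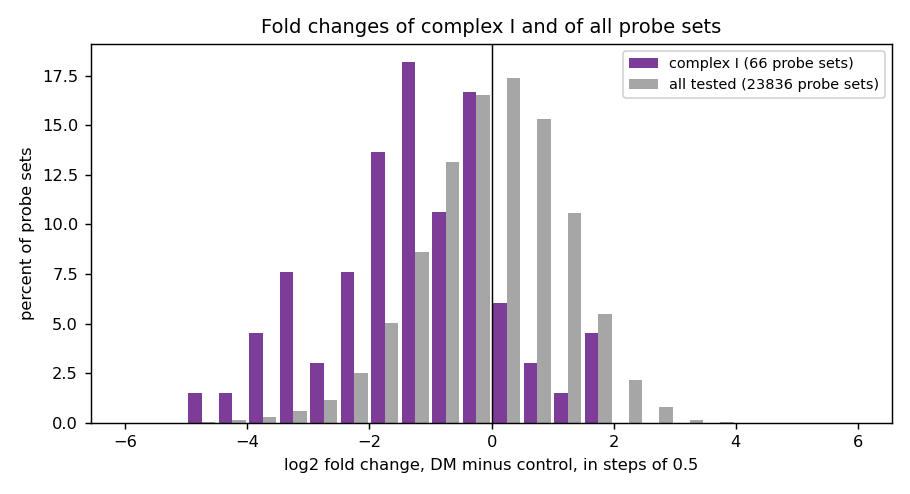
Distribution of log2 fold changes, DM minus control, in steps of 0.5 on the x axis, with the percent of probe sets on the y axis. Purple bars are the 66 complex I probe sets and grey bars all 23836 probe sets tested. The purple bars are shifted to the left, with a median of -1.20 beside 0.06, and run from -4.79 to 1.86.

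The core subunits had a median log2 fold change of -1.54 over 15 probe sets of 6 genes. Of these probe sets, 12 were lower in DM dogs, 8 of them at an unadjusted p under 0.05 (8.91% of all probe sets). Lower without overlap were 7 (5.87% of all). By the probe set of highest mean signal, all 6 measured core genes had lower means in DM dogs, although for NDUFV1 the difference was close to 0.

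NDUFS7 carries the last iron-sulfur cluster before ubiquinone and had the largest decrease among the core genes by the probe set of highest mean signal. Its log2 signal was 9.65, 7.14, 7.96 and 8.31 in DM dogs, against 11.96, 12.41, 11.23 and 8.79 in control dogs (log2 fold change -2.83 ± 0.83 SE, limma adjusted p = 0.128). D5, D6 and D7 lay above every DM dog by more than 1 log2 unit, while D8 lay below DM dog 0292. NDUFS8, which holds the clusters that hand electrons on to NDUFS7, had 7.55, 8.61, 7.57 and 7.63 in DM dogs and 9.77, 10.34, 9.15 and 8.25 in control dogs (-1.54 ± 0.63 SE, limma adjusted p = 0.243). Here too only D8 overlapped, with a value under that of DM dog 0294.

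NDUFS3, a core subunit near the ubiquinone site, was measured by 4 probe sets, and all 4 had groups that did not overlap. The one of highest signal gave 14.54, 13.44, 13.35 and 13.95 in DM dogs and 15.41, 15.68, 15.10 and 15.32 in control dogs (log2 fold change -1.56 ± 0.56 SE, limma adjusted p = 0.194). Another gave 4.75, 5.58, 7.66 and 9.70 in DM dogs and 11.84, 12.14, 11.95 and 10.90 in control dogs. This last probe set had the largest decrease of all members (-4.79 ± 0.93 SE, limma adjusted p = 0.0608), and was singled out after its values were seen. Its values in DM dogs 0292 and 0294 lay in the range of the dimmest of 5 equal classes of probe sets by mean signal, which ended at 6.12, so the size of this change rests on dim signals.

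NDUFS1, the largest core subunit, had 10.28, 11.27, 9.89 and 11.18 in DM dogs and 11.97, 11.99, 11.45 and 12.07 in control dogs (log2 fold change -1.21 ± 0.58 SE, limma adjusted p = 0.314). NDUFV2, which holds an iron-sulfur cluster beside the flavin, had 13.54, 13.80, 13.12 and 13.94 in DM dogs and 14.45, 14.68, 14.56 and 14.67 in control dogs (-0.99 ± 0.54 SE, limma adjusted p = 0.379). The groups did not overlap for either gene, although neither reached an unadjusted p of 0.05.

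NDUFV1, the subunit that binds the flavin and oxidises NADH, was represented by 6 probe sets that disagreed. Its probe set of highest mean signal had 7.92, 9.69, 8.72 and 8.32 in DM dogs and 8.85, 8.78, 8.90 and 8.71 in control dogs (log2 fold change -0.15 ± 0.58 SE, limma adjusted p = 0.922). Another had 5.37, 7.40, 5.35 and 7.66 in DM dogs and 10.10, 10.74, 9.92 and 9.22 in control dogs, with no overlap (-3.55 ± 0.71 SE, limma adjusted p = 0.0633). One more ran the other way, with 8.27, 7.40, 6.18 and 6.12 in DM dogs and 5.10, 6.62, 4.82 and 4.57 in control dogs (1.71 ± 0.70 SE, limma adjusted p = 0.244). The 6 fold changes ranged from -3.55 to 1.71, so no single direction can be given for NDUFV1.

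**Figure D3:**
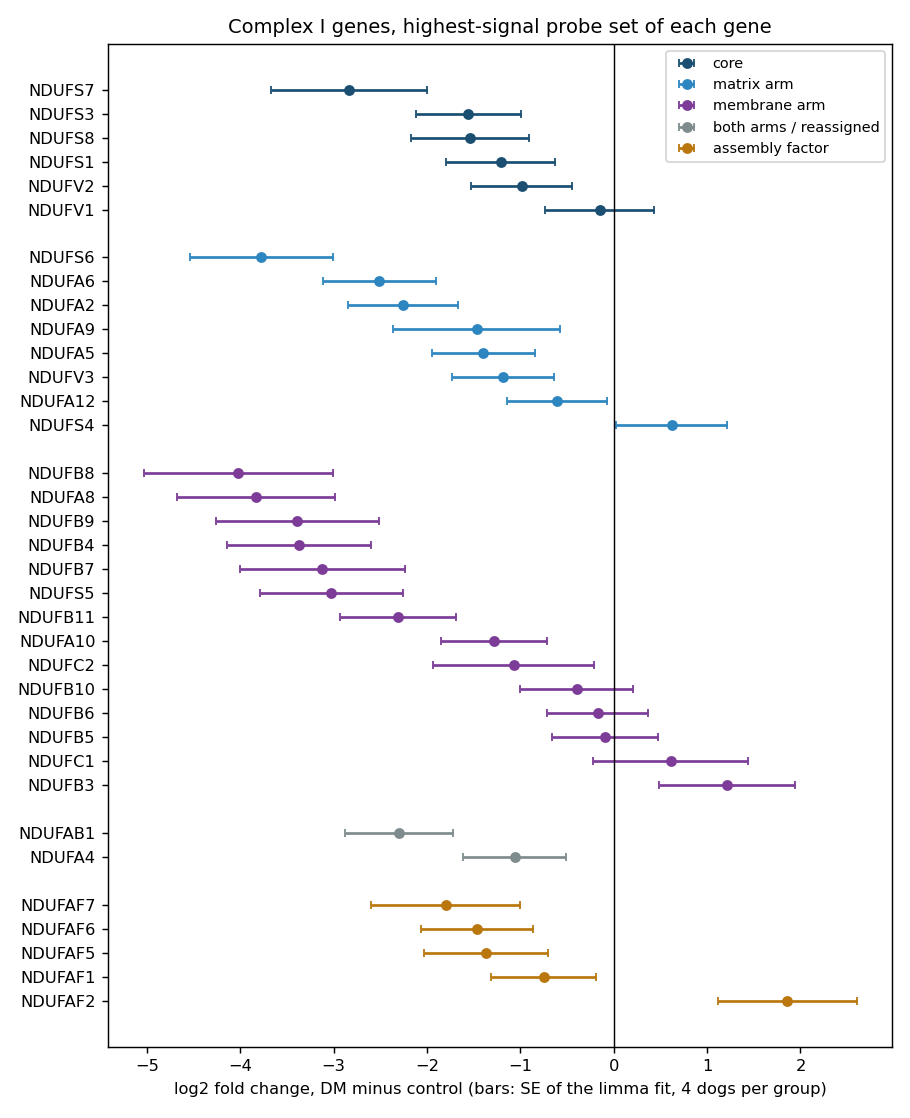
Log2 fold change, DM minus control, on the x axis for the highest-signal probe set of each of 35 complex I genes, with the SE of the limma fit as bars (4 dogs per group). Genes are grouped by role and ordered by fold change within a role. Points to the left of 0 are lower in DM dogs, which holds for 31 genes, and 4 genes lie to the right. NDUFS4, NDUFC1, NDUFB3 and NDUFAF2 lie to the right in this scaling and to the left when arrays are scaled to the hybridization controls. Scaling to these controls moves the median of all probe sets from 0.06 to -1.65.

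Accessory subunits of the matrix arm were measured by 15 probe sets of 8 genes out of 9 listed. Of the probe sets, 12 were lower in DM dogs, 7 at an unadjusted p under 0.05 (8.91% of all probe sets). Lower without overlap were 8 (5.87% of all), and the median log2 fold change was -1.19. NDUFS6, NDUFA6 and NDUFA2 had the largest decreases, while NDUFA12 and NDUFS4 stood closest to 0.

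NDUFS6, a small zinc-binding subunit added late in assembly, had 8.53, 9.99, 7.66 and 10.04 in DM dogs and 13.53, 13.65, 13.04 and 11.10 in control dogs (log2 fold change -3.78 ± 0.77 SE, limma adjusted p = 0.0646). NDUFA6, a protein of the LYR family that docks an acyl carrier protein, had 11.63, 12.48, 11.77 and 12.45 in DM dogs and 14.92, 15.54, 14.05 and 13.87 in control dogs (-2.51 ± 0.61 SE, limma adjusted p = 0.0881). In both genes every DM dog lay more than 1 log2 unit below the lowest control dog, which was D8. The other probe sets of NDUFA6 were dimmer and did not share this difference, with log2 fold changes from -0.09 to 0.09 and overlapping groups.

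NDUFA2, a subunit with a thioredoxin-like fold, had means of 11.70 ± 0.54 in DM dogs and 13.95 ± 0.59 in control dogs (SD, n = 4 each), with no overlap. NDUFV3, which sits at the flavin end of the arm, had log2 fold changes of -1.91 to -1.19 in 3 probe sets, all without overlap. NDUFA9, a subunit close to the ubiquinone site, had a log2 fold change of -1.47 with overlapping groups, since D8 had 4.70 while the other control dogs had at least 7.93. NDUFA12 had means of 14.19 ± 0.27 in DM dogs and 14.80 ± 0.23 in control dogs (SD, n = 4 each), a small difference without overlap that did not reach an unadjusted p of 0.05.

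NDUFA5 gave 12.13, 12.62, 11.96 and 12.06 in DM dogs and 13.58, 14.16, 13.35 and 13.28 in control dogs by its brighter probe set (log2 fold change -1.40 ± 0.55 SE, limma adjusted p = 0.230). Its dimmer probe set pointed the other way, with 6.30, 8.55, 4.88 and 7.20 in DM dogs and 4.73, 4.79, 4.84 and 6.22 in control dogs (1.58 ± 0.78 SE, limma adjusted p = 0.326). The brighter one had no overlap and the dimmer one did.

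NDUFS4, a small subunit that completes the enzyme late in assembly, had 14.59, 15.09, 14.27 and 14.37 in DM dogs and 13.51, 13.56, 13.66 and 15.12 in control dogs (log2 fold change 0.62 ± 0.60 SE, limma adjusted p = 0.638). D5, D6 and D7 all lay below the DM dogs, whereas D8 lay above them, and the difference was -1.53 with the arrays scaled to the hybridization controls. The 2 dimmer probe sets of NDUFS4 had lower means in DM dogs, of which the lowest log2 fold change was -0.85 with overlapping groups.

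Accessory subunits of the membrane arm made up the largest group, with 24 probe sets of 14 genes out of 20 listed. Of the probe sets, 21 were lower in DM dogs, 11 at an unadjusted p under 0.05 (8.91% of all probe sets). Lower without overlap were 9 (5.87% of all), and the median log2 fold change was -1.18. The genes spread widely: 7 of the 10 largest decreases by gene and 5 genes with a log2 fold change between -0.40 and 1.21 belonged to this arm.

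NDUFB8 had the largest decrease by gene, with 6.40, 5.52, 9.82 and 10.71 in DM dogs and 12.32, 12.55, 12.12 and 11.53 in control dogs (log2 fold change -4.02 ± 1.01 SE, limma adjusted p = 0.0923). The DM dogs split widely, with 0292 and 0294 more than 3 log2 units below 1087 and 1111, but all lay under D8. The value of 0294 lay in the range of the dimmest class, which ended at 6.12, so the size of this change rests in part on dim signal. A second probe set of NDUFB8 had 7.30, 9.18, 6.97 and 7.19 in DM dogs and 8.15, 8.08, 5.56 and 8.33 in control dogs, a difference of 0.13 ± 0.77 SE with overlapping groups (limma adjusted p = 0.948). Both remaining probe sets of NDUFB8 had lower means in DM dogs with overlapping groups, 1 of them at an unadjusted p under 0.05.

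NDUFA8, NDUFS5 and NDUFB7 face the intermembrane space and share a fold held by disulfide bridges. NDUFA8 had 7.45, 7.79, 5.01 and 8.93 in DM dogs and 11.56, 12.06, 11.34 and 9.57 in control dogs (log2 fold change -3.84 ± 0.85 SE, limma adjusted p = 0.0779), while a second probe set of this gene had -0.27 with overlapping groups. NDUFS5 had 7.14, 9.75, 10.02 and 10.90 in DM dogs and 12.58, 12.80, 12.50 and 12.03 in control dogs (-3.03 ± 0.76 SE, limma adjusted p = 0.0923). NDUFB7 had 5.51, 7.34, 6.99 and 8.38 in DM dogs and 10.96, 11.63, 10.45 and 7.67 in control dogs (-3.12 ± 0.88 SE, limma adjusted p = 0.120). The groups did not overlap for NDUFS5 and for this probe set of NDUFA8, and overlapped for NDUFB7 through D8.

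NDUFB4, NDUFB9 and NDUFB11 lie in the distal part of the membrane arm, and NDUFB9 is another LYR protein. NDUFB4 had 7.47, 9.69, 10.39 and 10.93 in DM dogs and 13.34, 13.47, 13.21 and 11.93 in control dogs (log2 fold change -3.37 ± 0.77 SE, limma adjusted p = 0.0816). NDUFB9 had 5.01, 7.81, 7.92 and 9.98 in DM dogs and 11.12, 11.39, 10.91 and 10.85 in control dogs (-3.39 ± 0.87 SE, limma adjusted p = 0.0964). In both probe sets DM dog 0292 was the lowest and 1111 the highest of the DM dogs, and no DM dog reached a control dog. A second probe set of NDUFB9 had a log2 fold change of -1.02 with overlapping groups. NDUFB11 had 13.67, 12.30, 11.68 and 13.28 in DM dogs and 15.15, 15.40, 15.06 and 14.54 in control dogs (-2.31 ± 0.62 SE, limma adjusted p = 0.107). Its second probe set had a log2 fold change of -2.06, also without overlap.

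**Figure D4:**
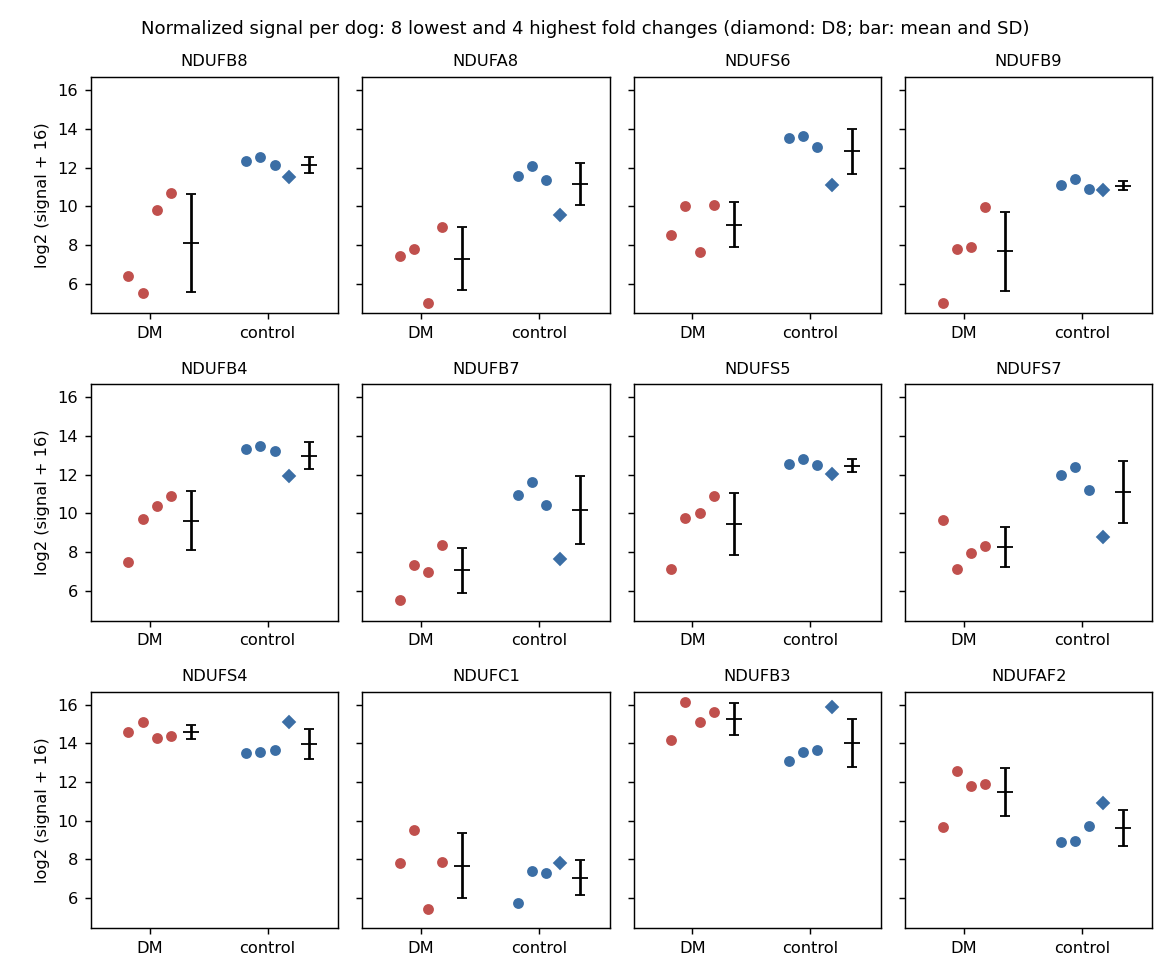
Log2 (normalized signal + 16) of each dog on the y axis for the highest-signal probe sets of 12 genes, 8 with the lowest and 4 with the highest fold changes. DM dogs are red and control dogs blue, with D8 as a diamond and the mean and SD as a bar. The values of the DM dogs lie below those of D5, D6 and D7 in the upper 8 panels, and D8 lies nearest to the DM dogs in each of them. In the lower 4 panels D8 is the highest control dog. The higher means of the DM dogs in these panels turn lower when arrays are scaled to the hybridization controls. Scaling to these controls moves the median of all probe sets from 0.06 to -1.65.

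NDUFA10, a subunit related to nucleoside kinases, had means of 10.25 ± 0.56 in DM dogs and 11.53 ± 0.35 in control dogs (SD, n = 4 each), with no overlap. NDUFC2 had log2 fold changes of -1.07 and -0.01 in 2 probe sets, both with overlapping groups. NDUFB10 and NDUFB6 differed little, with means of 12.75 ± 0.84 and 14.00 ± 0.35 in DM dogs, against 13.15 ± 0.29 and 14.17 ± 0.15 in control dogs (SD, n = 4 each). For NDUFB5 the brightest probe sets had log2 fold changes of -0.09 and -0.02, and another had -1.59 without overlap.

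NDUFB3, a membrane arm subunit, was one of 4 genes with a higher mean in DM dogs by the probe set of highest signal. It had 14.16, 16.12, 15.08 and 15.62 in DM dogs and 13.08, 13.53, 13.65 and 15.86 in control dogs (log2 fold change 1.21 ± 0.73 SE, limma adjusted p = 0.426). D5, D6 and D7 lay below every DM dog and D8 lay above all but 0294, but the difference was -1.05 after scaling by the hybridization controls. NDUFC1 had a log2 fold change of 0.61 with overlapping groups, which was -1.11 in that scaling.

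NDUFAB1 is the mitochondrial acyl carrier protein, which has a place in both arms and also serves mitochondrial fatty acid synthesis. Its brighter probe set had means of 11.83 ± 0.69 in DM dogs and 14.13 ± 0.08 in control dogs (SD, n = 4 each, log2 fold change -2.30, limma adjusted p = 0.0923), with no overlap and with all 4 control dogs between 14.05 and 14.22. The other probe set had -0.54 with overlapping groups. NDUFA4 bears a complex I name but is now counted as a subunit of complex IV. It had means of 14.59 ± 0.41 in DM dogs and 15.65 ± 0.34 in control dogs (SD, n = 4 each), also without overlap.

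The assembly factors had a median log2 fold change of -1.05 over 9 probe sets of 5 genes. Of these probe sets, 8 were lower in DM dogs, 3 at an unadjusted p under 0.05 (8.91% of all probe sets). Lower without overlap were 3 (5.87% of all). NDUFAF2 alone had a higher mean in DM dogs, and this direction did not hold with arrays scaled to the hybridization controls.

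NDUFAF7 is a methyltransferase that acts during assembly. It had 7.68, 5.48, 9.38 and 9.05 in DM dogs and 9.70, 9.53, 10.04 and 9.53 in control dogs (log2 fold change -1.80 ± 0.80 SE, limma adjusted p = 0.280). NDUFAF6, which acts on the ubiquinone module, had 9.03, 8.44, 8.80 and 10.33 in DM dogs and 10.78, 10.63, 10.69 and 10.35 in control dogs (-1.46 ± 0.60 SE, limma adjusted p = 0.243). The groups did not overlap in either gene, although in NDUFAF6 the DM dog 1111 nearly reached D8. For NDUFAF7 the value of 0294 lay in the range of the dimmest class, which ended at 6.12, so the size of its change rests in part on dim signal.

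NDUFAF5, which hydroxylates NDUFS7, had 5 probe sets with lower means in DM dogs, with log2 fold changes from -1.78 to -0.65. The brightest had 6.88, 6.95, 8.94 and 8.97 in DM dogs and 9.47, 9.48, 9.24 and 9.03 in control dogs (log2 fold change -1.37 ± 0.66 SE, limma adjusted p = 0.318), with 1087 and 1111 just under D8. NDUFAF1, which helps to build the membrane arm, had 10.19, 9.40, 8.83 and 9.80 in DM dogs and 10.13, 10.46, 10.32 and 10.33 in control dogs (-0.75 ± 0.56 SE, limma adjusted p = 0.531). Only 0292 reached the range of the control dogs.

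NDUFAF2, a relative of NDUFA12 that holds its place in a late intermediate, had 9.67, 12.59, 11.81 and 11.87 in DM dogs and 8.90, 8.97, 9.74 and 10.89 in control dogs. The log2 fold change was 1.86 ± 0.74 SE (limma adjusted p = 0.235), and the groups overlapped through DM dog 0292, which lay below D7 and D8. Without D8 and 0292 it was 3.09 (limma adjusted p = 0.0275), in a setting where 1.98% of all probe sets were called higher. For this gene 0292 was the lowest DM dog and D8 the highest control dog. Leaving both out was thus bound to widen the difference, and no conclusion is drawn from it. With arrays scaled to the hybridization controls the log2 fold change was -0.33 (limma adjusted p = 0.801).

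Other genes take part in building complex I but bear other names, and whether they differed from the NDUF genes was not tested. Of 13 listed genes, 8 were measured by 14 probe sets, of which 10 were lower in DM dogs, with a median log2 fold change of -0.61. At an unadjusted p under 0.05, 3 were lower and 0 higher (8.91% and 7.80% of all probe sets). COA1 had the largest decrease, with means of 6.26 in DM dogs and 9.24 in control dogs (limma adjusted p = 0.143), and ACAD9, a member of the early membrane arm assembly complex, had 8.46 in DM dogs and 10.77 in control dogs (limma adjusted p = 0.144). The groups did not overlap for ACAD9 by this probe set and overlapped for COA1.

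Of 35 complex I genes, 15 had more than 1 probe set. In 9 of these genes all probe sets were lower in DM dogs, and in NDUFV1, NDUFA5, NDUFA6, NDUFB8, NDUFS4 and NDUFS7 the probe sets differed in direction. The second probe set of NDUFS7 was dim, with 5.47, 5.36, 5.18 and 5.19 in DM dogs and 5.15, 5.00, 5.69 and 4.82 in control dogs (log2 fold change 0.13). At least 1 probe set was lower at an unadjusted p under 0.05 in 22 of the 35 genes, beside 15.4% of all 6540 genes named by a single symbol. The other 13 were NDUFA4, NDUFA9, NDUFA12, NDUFB3, NDUFB6, NDUFB10, NDUFC1, NDUFC2, NDUFS1, NDUFS4, NDUFV2, NDUFAF1 and NDUFAF2. Of these, NDUFA4, NDUFA12, NDUFS1 and NDUFV2 nevertheless had groups that did not overlap.

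**Figure D5:**
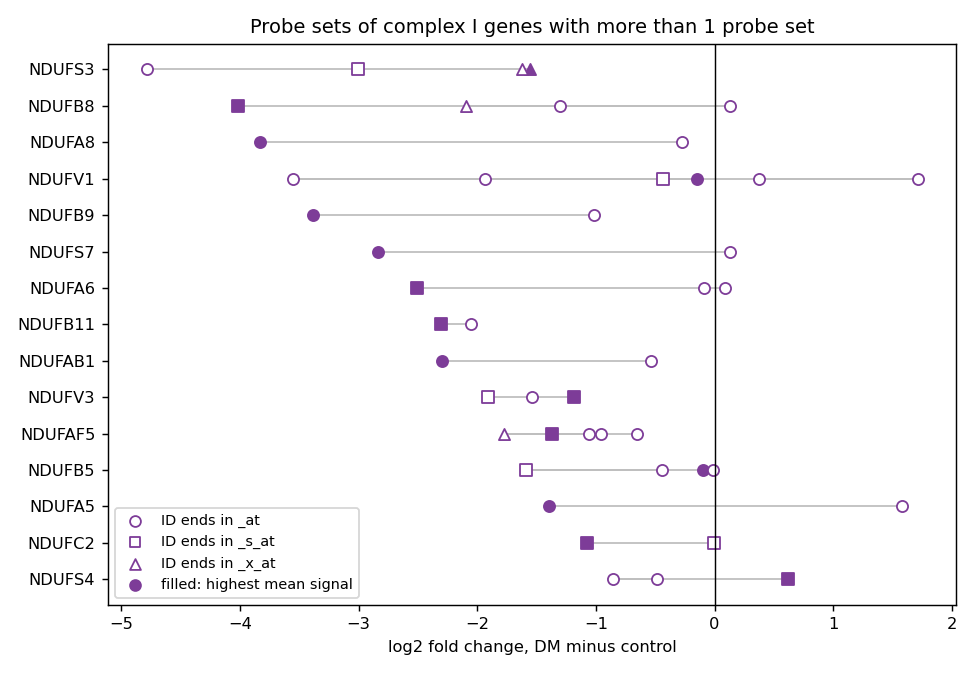
Log2 fold change, DM minus control, on the x axis for every probe set of the 15 complex I genes with more than 1 probe set. Each point is a probe set, its shape gives the ending of the probe set name, and the filled point is the one of highest mean signal. The 6 probe sets of NDUFV1 span -3.55 to 1.71, and those of NDUFB11 lie close together at -2.31 and -2.06.

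Members lower at an unadjusted p were more frequent among bright probe sets and among those that can match more than 1 transcript, and so were lower probe sets of the whole array. When all probe sets were split by mean signal into 5 equal classes, 37 members fell into the brightest, of which 24 were lower at an unadjusted p under 0.05, beside 17.5% of all probe sets in that class, and their median log2 fold change was -1.56 beside -0.24. Of 6 members in the dimmest class, 0 were lower at that level and their median was 0.11 beside 0.47. Names that end in _s_at or _x_at mark probe sets whose probes can match several transcripts. Of 19 such members, 14 were lower at an unadjusted p under 0.05, or 73.7% (19.6% of all such probe sets). Of 47 members that end in _at only, 16 were lower, or 34.0% (7.54% of all such probe sets), and their median was -0.95 beside 0.10. Signal of a related gene or processed copy was not separated from that of the named gene here.

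Values of DM dogs were more scattered. The median SD over members was 0.99 in DM dogs and 0.52 in control dogs, and the SD was larger in DM dogs for 49 of 66 members, or 74.2%. Over all probe sets it was 1.23 in DM dogs and 0.70 in control dogs, and the SD was larger in DM dogs for 76.7%, a share close to that of complex I.

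The other complexes of the chain also had lower signals in DM dogs. Complexes II to IV and ATP synthase were measured by 40 probe sets of 22 genes, with a median log2 fold change of -2.19. Of these probe sets, 38 were lower in DM dogs, 26 at an unadjusted p under 0.05 (8.91% of all probe sets). Complex III, which passes electrons from ubiquinone to cytochrome c, had a median of -2.61 over 14 probe sets, with 13 lower at an unadjusted p under 0.05. ATP synthase had -2.11 over 15 probe sets, complex II -1.46 over 5 and complex IV -0.69 over 6. Complex I, at -1.20 over 66, thus lay between complex IV and complex II, and no test of the difference between complexes was made. Complex IV was measured for only 5 of 13 listed genes. With 1 probe set per gene the medians were -1.40 for complex I, -1.33 for complex IV and -2.18 for complex II, so complexes I and IV were then close.

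Among 16 listed regulators of respiratory chain genes, 9 were measured by 14 probe sets, with a median log2 fold change of -0.67. At an unadjusted p under 0.05, 3 were lower and 0 higher (8.91% and 7.80% of all probe sets). The 3 lower ones were both probe sets of PPARGC1A, the coactivator that drives mitochondrial biogenesis, and one of PPARA, the fatty acid receptor. The brighter probe set of PPARGC1A had 5.50, 8.88, 4.86 and 5.64 in DM dogs and 8.10, 8.37, 7.53 and 8.07 in control dogs (limma adjusted p = 0.287), where 0294 was the highest of all 8 dogs. The brighter probe set of PPARA had 8.08, 8.54, 9.18 and 9.86 in DM dogs and 9.94, 10.07, 10.28 and 11.16 in control dogs (limma adjusted p = 0.257), without overlap.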

How the data were processed

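Total RNA of left ventricle was hybridised to the Affymetrix Canine Genome Array, 1 array per dog, in 4 DM and 4 control dogs. The authors made the deposited intensities with MAS 5.0, as 1 linear signal for each probe set, scaled to a mean of 500 after 2% trimming at either end. The RMA step that the methods name is not in these values, and detection calls were not used here. After 77 manufacturer controls were set aside, 23836 probe sets were tested. Arrays were scaled to the trimmed mean of 500 and quantile normalized, 16 was added and log2 was taken, so fold changes are on the log2 (signal + 16) scale and understate the change of dim probe sets.

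The comparison of DM with control dogs used limma (version 3.58.1, functions lmFit and eBayes, R 4.3.3) with the group as the only term. Tests were two-sided with a threshold of 0.05 after Benjamini-Hochberg adjustment across all 23836 probe sets. Array measures were compared by exact permutation over 70 assignments with scipy 1.17.1, with a smallest two-sided p of 0.0286. Figures were drawn with matplotlib 3.10.9. The steps were tested on simulated data. Dogs are the replicates, 4 per group, and their number limits the precision.

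Gene symbols came from the platform annotation, updated through gene identifiers: 10549 probe sets had 1 symbol, 138 several and 13149 none listed. For 64 of 66 members the RefSeq gene table held the symbol, and 2 probe sets with a second symbol beside a complex I name were left out. Values of every dog are given for the highest-signal probe set of each core subunit, the 10 largest decreases and 3 largest increases by gene, every assembly factor and genes whose probe sets disagreed. The members, lists and this rule were chosen with earlier results of these data known. Alternatives were no quantile normalization, median centring, cyclic loess, scaling to the hybridization controls, no offset or 64, probe sets above the median level, array weights, each dog left out, D8 and 0292 left out together, no _s_at or _x_at probe sets, 1 probe set or the mean per gene, and the methods' t-test.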

Additional observations from a re-analysis of the deposited data

Results flagged for a closer look

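In 114 groups of 4 dogs, which are the DM dogs and the control dogs for each probe set given singly and for each array measure, 9 held a dog that stood far from the other dogs of its group by Dixon's criterion. About 1 in 20 groups is picked out by chance.

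Control dog D8 stood apart in 5 of these groups. Its hybridization controls were at 15.8 on the log2 scale, while D5, D6 and D7 had 13.1 to 13.4. NDUFS4 was at 15.12 in D8 by its brightest probe set and at 13.51 to 13.66 in the other control dogs. NDUFB4 was at 11.93 in D8 and at 13.21 to 13.47 in the others. NDUFA9 was at 4.70 in D8 and at 7.93 to 8.57 in the others. The dimmer probe set of NDUFA5 was at 6.22 in D8 and at 4.73 to 4.84 in the others. In NDUFS4 the DM dogs lay on the same side of D5, D6 and D7 as D8 did, and this was also the case for the other 3 genes by their group means.

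DM dog 0294 stood apart in 3 groups. NDUFS8 was at 8.61 in this dog and at 7.55 to 7.63 in the other DM dogs. A dim probe set of NDUFA6 was at 7.65 and at 4.67 to 4.89 in the others. A dim probe set of NDUFB8 was at 9.18 and at 6.97 to 7.30 in the others, and for the same probe set control dog D7 was at 5.56 while the other control dogs had 8.08 to 8.33.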

How the results depend on the processing

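Of 53 probe sets given singly, 40 kept their direction under every alternative run (38 lower, 2 higher). The median shift of all probe sets was 0.06, and it was 0.34 without quantile normalization, -0.19 with median centring and -1.65 with scaling to the hybridization controls, where the complex I median was -3.29. Members lower at an adjusted p under 0.05 numbered 0, but 11 with median centring (1.35% of all probe sets), 48 with scaling to the hybridization controls (32.2%), 13 with an offset of 64 (1.31%), 16 with array weights (2.47%), 13 without D8 and 0292 (2.01%), 2 genes with the mean of a gene's probe sets (0.627% of all genes), and 0 to 10 with 1 dog left out (6 without D8, 0.906% of all; 10 without 1111, 1.49% of all; 0 otherwise). NDUFS3, NDUFS6, NDUFA8 and NDUFV1 had a probe set called in all 7 of these settings that tested single probe sets and called a member. Settings that called no member were left out of this count, so members of lowest p were likely to recur, and no conclusion is drawn. Other probe sets of NDUFA8 and NDUFV1 differed, as given above. Members higher at an adjusted p numbered 0, and 1 without D8 and 0292, which was NDUFAF2 (1.98% of all). Members lower at an unadjusted p numbered 30, but 52 with scaling to the hybridization controls (45.2% of all), 16 without _s_at and _x_at probe sets (7.42%) and 18 by the criteria of the methods (2.52%). With 1 dog left out they numbered 20 to 30. The lowest counts were 20 without D6 (5.71% of all), 21 without D5 (5.83%) and 24 without D7 (6.14%). Smaller moves of the counts in this paragraph are not all given. Members higher at an unadjusted p numbered 2 (7.80% of all). The count was 1 with median centring (4.97%), cyclic loess (8.12%), an offset of 64 (7.82%) or probe sets above the median level (7.80%). It was also 1 with 1 probe set per gene (8.90% of all genes) or the mean of a gene's probe sets (8.21%). It was 0 with scaling to the hybridization controls (0.0629%) or by the criteria of the methods (2.45%). With 1 dog left out it was 0 to 3 (4.99% to 9.69% of all). Members without overlap and lower numbered 29 (5.87% of all), but 17 without _s_at and _x_at probe sets (4.97%) and 17 genes with the mean of a gene's probe sets (7.66% of all genes). Those higher numbered 0 (4.93% of all), but 4 without D8 and 0292, where 14.9% of all were higher. With 1 dog left out they numbered 0 to 3 (5.85% to 9.25% of all).

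Directions turned for 13 probe sets, most of them near 0. With scaling to the hybridization controls the log2 fold change was -0.33 for NDUFAF2, -1.05 for NDUFB3, -1.53 for NDUFS4, -1.11 for NDUFC1, -1.07 for the dim probe set of NDUFS7, -1.05 for that of NDUFA6 and -1.59 for that of NDUFB8. Without quantile normalization it was 0.81 and 0.76 for the brightest probe sets of NDUFB5, 0.16 for NDUFB6, 0.29 for the dim probe set of NDUFC2 and 0.019 for the brightest of NDUFV1. With median centring it was 0.16 and 0.11 for NDUFB5 and -0.031 for NDUFB8, and without an offset 0.021 for NDUFC2. With cyclic loess it was -0.28 for NDUFA6, 0.14 for the second probe set of NDUFA8, -0.36 for NDUFS7 and 0.31 for NDUFV1. With array weights it was -0.19 for NDUFA6, 0.086 and 0.20 for NDUFB5 and 0.17 for NDUFC2. Without D8 and 0292 it was 0.20 and 0.32 for NDUFB5, 0.21 for NDUFC2, -0.043 for NDUFS7 and 0.071 for NDUFV1. With 1 dog left out it was -0.63 to 0.48 for NDUFA6, -0.63 to 0.44 for NDUFA8, -0.30 to 0.11 and -0.19 to 0.24 for NDUFB5, -0.54 to 0.39 for NDUFB8, -0.0094 to 1.36 for NDUFC1, -0.33 to 0.23 for NDUFC2 and -0.51 to 0.11 for NDUFV1. The cause of these turns was not tested. No paired analysis was possible because DM and control dogs are different animals that share no number in the labels.

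The main limits are 4 dogs per group, array controls that moved with the groups, no detection calls for dim probe sets and gene names that rest on an old annotation. For 7 members the DM mean lay in the dimmest of 5 equal classes, where the size of a fold change is uncertain. Values of single DM dogs also lay in that range, among others, for NDUFB8, NDUFA8, NDUFB9, NDUFB7 and the NDUFV1 probe set with the largest decrease. The same held for NDUFAF7, NDUFA9, NDUFC1 and NDUFC2 by the probe set of highest signal.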
